A study of Mus musculus with 2 samples.

Results

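Cathepsins are the main proteases of the lysosome, and cystatins are the small proteins that inhibit the cysteine-protease branch of the family. RNA of 9 such genes, Ctsa, Ctsb, Ctsd, Ctsh, Ctsl, Ctss, Ctsz, Cst3 and Cstb, was compared between granulocyte-monocyte progenitors (GMPs) from non-tumor-bearing (NTB) mice and GMPs from mice bearing mammary tumors. The genes were chosen by their symbols, and all 9 were found among the 24421 gene symbols deposited. GMPs are BM progenitors that give rise to granulocytes and monocytes. They were purified by flow cytometry from the BM of female mice that the labels describe as F1 semi-syngeneic (H-2b/d), and total RNA was sequenced. One group, NTB-GMP, came from mice without a tumor. The other, 4T1-GMP, came from mice with an orthotopic tumor of the mouse mammary carcinoma line 4T1. The labels give neither the age of the mice, the time after implantation nor the number of mice behind a library.

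Each group had 1 library, so no difference carries replicate error and none was tested between the conditions. Values are RPKM, that is, read counts scaled by the length of the gene and the size of the library. Whole reads could be recovered from them, and all intervals below are 95% intervals on those reads, which cover counting error in these libraries only. The library sizes fitted to the RPKM, which are not plain read totals, were 10180365 for NTB-GMP and 30016263 for 4T1-GMP. Rn45s, which encodes the precursor of ribosomal RNA, had reads equal to 17.0% and 6.98% of them. Each log2 ratio is the difference in log2(RPKM + 0.1), 4T1-GMP minus NTB-GMP. A total of 10378 genes averaged 1 RPKM or more over both libraries and are called tested here, in the sense of compared, and their median ratio was 0.05. Taking Rn45s out of the library sizes shifted that median to -0.11. If the authors had already scaled the sizes by a normalization factor, which the sources used here do not state, this is only an approximate rescaling. All 10 GMP markers examined were above 0 in both libraries, led by Mpo, the granule peroxidase, at 5163 RPKM in NTB-GMP against 5625 RPKM in 4T1-GMP. Of the 10, 6 were higher in 4T1-GMP, against 54.7% of all tested genes, and 4 were lower. With Rn45s taken out, 5 were higher, against 39.2% of all tested genes. At a fold of 2, 3 (Prtn3, Ctsg and Ms4a3) were higher, against 3.25% of tested genes, and 1 (Cd34) was lower, against 4.92%. The progenitor genes Kit and Cd34 had 78.5 and 154 RPKM in NTB-GMP, and 49.1 and 59.4 RPKM in 4T1-GMP. Sums over stem and early progenitor markers were 75.0 and 28.0 RPKM, over erythroid markers 41.6 and 73.4 RPKM with the 4 hemoglobin genes listed at 0 in both, and over lymphoid markers 206 and 349.7 RPKM, of which Nkg7 gave 190.3 and 337 RPKM.

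Lysosomal cathepsins are made as inactive proenzymes in the endoplasmic reticulum, receive a mannose 6-phosphate tag, and are carried by receptors for that tag to acidified endosomes, where they are activated. They fall into separate catalytic classes: cathepsins B, H, L, S and Z use a cysteine, cathepsin D an aspartate and cathepsin A a serine. Cystatin C is secreted and cystatin B is cytosolic, and both block cysteine cathepsins. In myeloid cells these enzymes degrade engulfed proteins, process antigens for MHC class II molecules and take part in the activation of granule proteases.

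Among the 7 cathepsins of the set, the 4 most abundant in NTB-GMP were higher in 4T1-GMP, and the 3 scarcer ones differed in direction. Cathepsins Z, D and B were about 1.5-fold higher, cathepsin A was 1.35-fold higher and cathepsin L 1.25-fold higher. Cathepsin H was 3.96-fold lower and cathepsin S 1.78-fold lower. Cystatin C was 10.3% lower, whereas the interval for cystatin B included no difference. In all, 6 of the 9 genes were higher in 4T1-GMP, against 54.7% of all tested genes, and 3 were lower, against 45.3%. Their median log2 ratio was 0.32. At a fold of 1.5, 2 genes (Ctsz and Ctsd) were past the threshold in the higher direction, against 9.8% of tested genes. Another 2 (Ctsh and Ctss) were past it in the lower direction, against 11.6%. Ctsb missed that threshold at 1.499-fold, and Ctsd passed it at 1.502-fold, so the count in the higher direction rests on very small differences. Without Rn45s in the library sizes it was 0, and the direction of all 9 genes was the same. At a fold of 2, Ctsh alone was past the threshold, where 4.92% of tested genes were lower and 3.25% higher. As the genes were taken as a family and not tested, these shares place them among all genes and do not set the family apart.

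**Figure D1:**
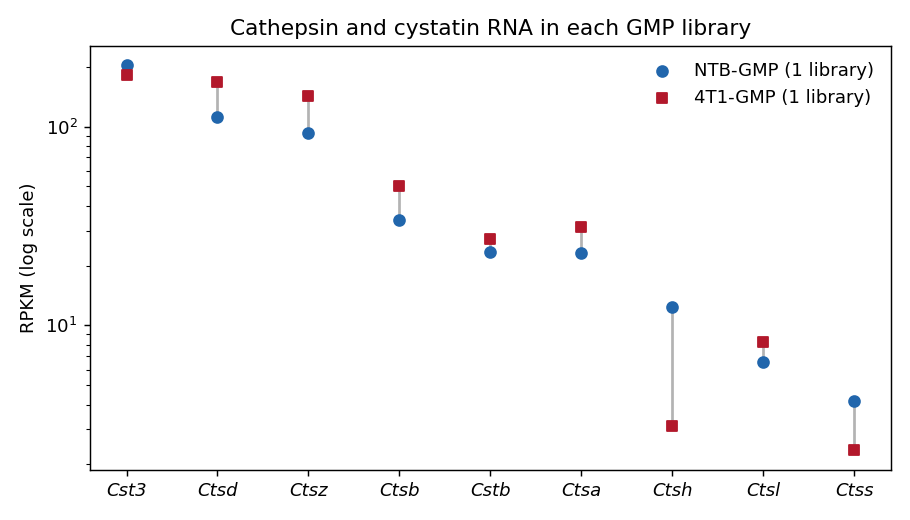
RPKM on a log axis for each of the 9 genes in the NTB-GMP library (circles) and the 4T1-GMP library (squares), ordered by the NTB-GMP level. Cst3, Ctsd and Ctsz stood highest in both libraries, and Ctsh showed the widest gap, from 12.3 to 3.12 RPKM.

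The family spanned a 48.6-fold range of levels in NTB-GMP, from 4.19 RPKM (Ctss) to 203 RPKM (Cst3), and a 77.6-fold range in 4T1-GMP, from 2.35 to 183 RPKM of the same genes. In NTB-GMP the order of RPKM was Cst3, Ctsd, Ctsz, Ctsb, Cstb, Ctsa, Ctsh, Ctsl and Ctss. Cstb and Ctsa were not separable in that order, as the counting interval of Cstb (18.4 to 29.6 RPKM) contained that of Ctsa (21.7 to 24.8 RPKM). Those of Ctsl (5.50 to 7.80 RPKM) and Ctss (2.81 to 6.02 RPKM) overlapped too. In 4T1-GMP, Ctsa stood above Cstb and Ctsl above Ctsh. There the intervals overlapped for Ctsa (30.2 to 32.3 RPKM) and Cstb (24.0 to 31.0 RPKM), and for Ctsh (2.64 to 3.66 RPKM) and Ctss (1.73 to 3.12 RPKM). The other neighbours had counting intervals that did not meet.

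Promoter windows were available for 6 of the 9 genes (Cst3, Ctsa, Ctsd, Ctsl, Ctss and Ctsz) in the RefSeq promoter table for GRCm38.p6, from 250 bases before to 50 after each start site. The E-box core CACGTG, searched on both strands, is contained in the element through which TFEB and its relatives regulate lysosomal genes. It was present in the windows of Ctsa, Ctsd and Ctsl, against 7.15% of all 32851 windows of that length. A longer form, TCACGTGAC, which overlaps the core by definition, was present for Ctsa and Ctsd, against 0.782% of all windows. These stretches are shown because both genes were higher in 4T1-GMP and carry that longer form, with its letters in capitals and each read 5′ to 3′ on the strand of its gene. Distances are from the RefSeq start sites. For Ctsd that site lies inside the gene as GENCODE M21 annotates it, so the stretch shown is upstream of the RefSeq start and within the GENCODE gene.
Ctsd, 99 bases before the RefSeq start site, chr7:142387908-142387936, minus strand: cgcccgcgtcTCACGTGACccgttgaggg
Ctsa, 14 bases before the second annotated start site, chr2:164833749-164833777, plus strand, with the form on the opposite strand: tgagcaaactGTCACGTGAtgcagatgct
Ctsa, from base 5 after that start site, chr2:164833767-164833795, plus strand: atgcagatgcTCACGTGACcagagctaca

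The E-box core was present for Ctsa, Ctsd and Ctsl, which had positive ratios. It was absent from the windows of Cst3 and Ctss, which had negative ratios. Ctsz, with the highest ratio of the 9 genes, had none in its window either. Whether the core is related to the direction of the ratios was not tested. Ctss is shown for another form. Its window held GAAA followed after any 2 bases by GAAA, a form of the element bound by interferon regulatory factors, 21 bases before the start site, as did 3.44% of all windows (both strands searched). No other of the 6 genes with a window held that form. The 120 bases before the Ctss start site, at chr3:95526666-95526785 on the plus strand, read as follows, with the form in capitals.
Ctss: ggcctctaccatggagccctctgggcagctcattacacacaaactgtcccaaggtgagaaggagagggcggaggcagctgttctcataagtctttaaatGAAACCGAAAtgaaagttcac
A match of letters is a description of the window and does not show that a factor was bound in these cells.

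Cathepsin D is the principal aspartic protease of the lysosome. Its gene, Ctsd (chromosome 7, 142375911 to 142388038 in the GENCODE M21 annotation of GRCm38), had 112 RPKM in NTB-GMP, from 2227 reads, and 168 RPKM in 4T1-GMP, from 9863 reads. The 4T1-GMP level was higher, with a log2 ratio of 0.59 (Clopper-Pearson interval 0.52 to 0.65). This ratio was above that of 90.2% of tested genes. In GENCODE M21 a second gene on the same strand, Gm49369, covers 34.4% of the exonic bases of Ctsd. It is not among the deposited symbols, so whether it affected the counting of Ctsd reads is not known. Cathepsin A is a serine carboxypeptidase that also protects the lysosomal sialidase and beta-galactosidase from degradation. Ctsa (chromosome 2, 164832873 to 164841032) had 23.2 RPKM in NTB-GMP against 31.2 RPKM in 4T1-GMP, a log2 ratio of 0.43 (interval 0.32 to 0.54). On the opposite strand, Pltp and Neurl2 overlap 10.5% and 6.87% of its exonic bases, with at most 1.27 RPKM in either library. Its partners differed in direction. Neu1, the sialidase, had 14.8 RPKM in NTB-GMP against 32.5 RPKM in 4T1-GMP (a log2 ratio of 1.12, interval 1.003 to 1.26). Glb1, the beta-galactosidase, had 32.5 and 25.6 RPKM (log2 ratio -0.34, interval -0.46 to -0.23).

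Cathepsin Z is a carboxypeptidase and contributed most of the cysteine cathepsin RNA. Ctsz (chromosome 2, 174427493 to 174439039) had 93.2 RPKM in NTB-GMP, from 1321 reads, and 143 RPKM in 4T1-GMP, from 5973 reads. Its log2 ratio of 0.62 (interval 0.53 to 0.70) was the highest among the 9 genes as reported, with an interval that overlapped those of Ctsd and Ctsb. Cathepsin B acts as an endopeptidase and as a carboxypeptidase. Ctsb (chromosome 14, 63122462 to 63145923) had 33.7 RPKM in NTB-GMP against 50.5 RPKM in 4T1-GMP, a log2 ratio of 0.58 (interval 0.51 to 0.66). Of its annotated exonic bases, 12.8% overlap Fdft1 on the opposite strand, a gene of squalene synthesis that had 2.47 RPKM in NTB-GMP against 5.07 RPKM in 4T1-GMP. Whether counting used strand is not given in the sources used here, so reads from that stretch cannot be assigned. Cathepsin L is a potent endopeptidase, and its RNA was scarce in both libraries. Ctsl (chromosome 13, 64359337 to 64370890) had 6.58 RPKM in NTB-GMP, from 132 reads, and 8.23 RPKM in 4T1-GMP, from 487 reads, with a log2 ratio of 0.32. Its interval of 0.04 to 0.61 included the median of all tested genes, so Ctsl was not separable from the general shift at this depth. Of its annotated exonic bases, 26.8% lie opposite an antisense transcript.

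Cathepsin H is an aminopeptidase, and its gene had the lowest ratio of the family. Ctsh (chromosome 9, 90054152 to 90076089) had 12.3 RPKM in NTB-GMP, from 204 reads, and 3.12 RPKM in 4T1-GMP, from 152 reads of the deeper library. The log2 ratio was -1.95 (interval -2.30 to -1.67), and 1.24% of tested genes had a lower one. Cathepsin S stays active at neutral pH and removes the invariant chain, encoded by Cd74, from MHC class II molecules in antigen-presenting cells. Ctss (chromosome 3, 95526786 to 95556403) had 4.19 RPKM in NTB-GMP against 2.35 RPKM in 4T1-GMP, from at least 29 and 48 reads. The log2 ratio of -0.81 had a wide interval of -1.53 to -0.12, which did not include 0. The reads of Ctss implied a gene length of 680 bases, and its nearest annotated transcript has 1355, so the true reads may have been 58 and 96, with an interval of -1.32 to -0.34. Ctsh and Ctss together gave a small part of the cysteine cathepsin RNA. Ctsh made up 8.23% of the summed RPKM of the 5 cysteine cathepsins in NTB-GMP and 1.51% in 4T1-GMP, and Ctss 2.79% and 1.14%. Ctsz made up 62.1% and 69.0%.

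**Figure D2:**
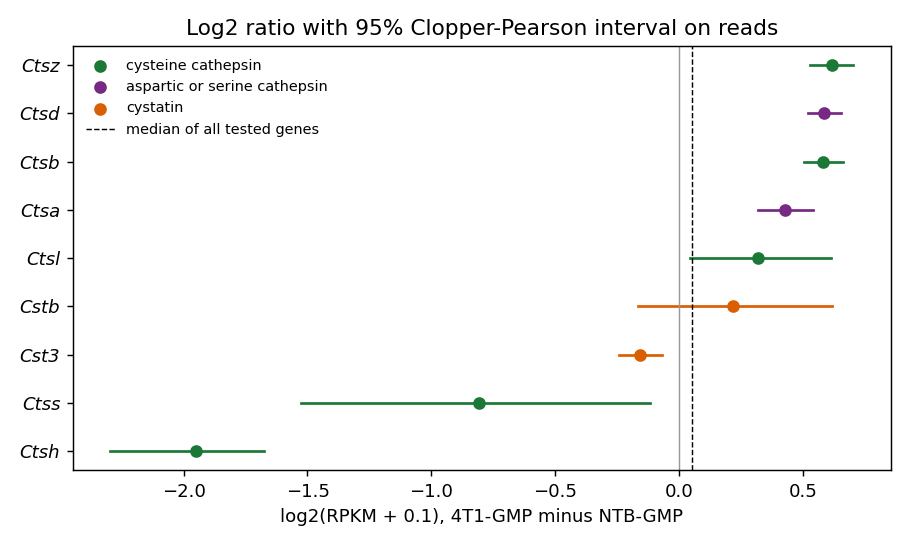
Log2(RPKM + 0.1) of 4T1-GMP minus NTB-GMP for the 9 genes (points) with the 95% Clopper-Pearson interval on the reads (lines), colored by catalytic class or as cystatins. The dashed line marks the median of all tested genes, 0.05; Ctsh, Ctss and Cst3 lay below 0 with their intervals, and Ctsa, Ctsb, Ctsd and Ctsz lay above the dashed line with their intervals.

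Monocyte and dendritic cell genes were also lower in 4T1-GMP. Their values stand beside those of Ctsh and Ctss here because these cathepsins were lower as well, a choice made by direction. The other cathepsins of the set, Ctsa, Ctsb, Ctsd, Ctsl and Ctsz, were higher. Of 14 monocyte and dendritic cell markers, 10 were abundant enough to be compared. All 10 were lower (median log2 ratio -2.72), against 45.3% of all tested genes. Their summed level over the 14 was 186 RPKM in NTB-GMP against 37.5 RPKM in 4T1-GMP. Cd74 had 42.3 and 4.85 RPKM, and Irf8, a transcription factor of monocyte and dendritic lineages, 32.0 and 4.45 RPKM. In 4T1-GMP only Zbtb46, a dendritic cell factor, was listed at 0, and in NTB-GMP no marker of the list was. Macrophage markers were scarce. Of the 10 present in the files, Vcam1, which other cells also make, had 16.7 and 19.0 RPKM and the rest were at or below 1.24 RPKM. Mertk was listed at 0 in both libraries. C1qb, C1qc, Cd5l and Timd4 were at 0 in 4T1-GMP only, with 1.02, 0.186, 0.0964 and 0.0452 RPKM in NTB-GMP. Neutrophil granule markers differed in the other direction, with 12 of 12 tested markers higher in 4T1-GMP, against 54.7% of all tested genes. Their summed level over 13 was 514 RPKM in NTB-GMP against 4073 RPKM in 4T1-GMP, with none at 0. Most of that sum came from S100a8 (208 and 1594 RPKM) and S100a9 (189 and 1974 RPKM). The part of these marker genes' cells in the cathepsin values was not tested. In RNA from sorted populations, fewer cells of a type and less RNA per cell cannot be told apart.

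Cystatin C was the most abundant of the 9 RNAs in both libraries. Cst3 (chromosome 2, 148871722 to 148875692) had 203 RPKM in NTB-GMP, from 1537 reads, and 183 RPKM in 4T1-GMP, from 4067 reads. It was slightly lower in 4T1-GMP, with a log2 ratio of -0.16 (interval -0.24 to -0.07) that was above that of 32.1% of tested genes. Cystatin B is also known as stefin B. Cstb (chromosome 10, 78425669 to 78427622) had 23.5 RPKM in NTB-GMP against 27.3 RPKM in 4T1-GMP, from at least 72 and 247 reads. Its log2 ratio of 0.22 had an interval of -0.17 to 0.62. The reads of Cstb implied a gene length of 301 bases, and its nearest annotated transcript has 603. The true reads may therefore have been 144 and 494, with an interval of -0.05 to 0.50. Both intervals included 0, so a difference was not detectable at this depth.

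Summed over the 5 cysteine cathepsins of the set, RPKM were 150.0 in NTB-GMP and 207 in 4T1-GMP, which was 38.1% higher. Cysteine cathepsins outside the set, such as Ctsc, Ctsf and Ctso, were not counted in this sum. The summed RPKM of cystatins C and B were 227 and 210. The ratio of the cathepsin sum to the cystatin sum was therefore 0.661 in NTB-GMP and 0.986 in 4T1-GMP. This ratio depends on which inhibitors are counted. Cst7 encodes cystatin F, an inhibitor of immune cells that acts within lysosomes, and had 149 RPKM in NTB-GMP against 211 RPKM in 4T1-GMP (a log2 ratio of 0.51, interval 0.42 to 0.59). With Cst7 included, the ratio was 0.399 in NTB-GMP and 0.492 in 4T1-GMP. The stefin A genes, which encode cytosolic inhibitors of the same enzymes, were listed at 0 in NTB-GMP and summed to 59.9 RPKM in 4T1-GMP over Stfa1, Stfa2, Stfa2l1 and Stfa3. With these added too, the 4T1-GMP ratio was 0.431. With BC100530, BC117090 and Gm5483, which lie in the same gene cluster, it was 0.388 and so below that of NTB-GMP. The direction of the ratio therefore reversed with the inhibitors counted, and reads of these near-identical genes are uncertain. These are ratios of RNA and not of protein or activity.

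The other cathepsins examined were Ctsc, Ctse, Ctsf, Ctsk, Ctso and Ctsw, with Lgmn, an asparaginyl endopeptidase that processes cathepsins. None of the 4 tested was higher in 4T1-GMP. Ctsc encodes dipeptidyl peptidase I, which activates the serine proteases of neutrophil granules, and had 18.4 RPKM in NTB-GMP against 18.3 RPKM in 4T1-GMP (a log2 ratio of -0.01, interval -0.16 to 0.14). Ctse, an aspartic protease of endosomes, had 48.7 and 46.7 RPKM (log2 ratio -0.06, interval -0.16 to 0.04). Ctsf, which can also process the invariant chain, had 2.79 and 1.18 RPKM (log2 ratio -1.17, interval -1.77 to -0.70). Ctso had 4.35 and 2.41 RPKM (log2 ratio -0.83, interval -1.15 to -0.55). Ctsw, a gene of T and NK cells, and Lgmn lay between 0.135 and 0.267 RPKM in both libraries, and Ctsk, the osteoclast cathepsin, was listed at 0 in NTB-GMP with a single read in 4T1-GMP. Cst7 aside, the 7 other cystatins examined (Cst6, Cst8, Cst9, Cst10, Cst11, Cst12 and Cst13) were listed at 0 in both libraries.

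Genes of the rest of the lysosome were taken from lists written from knowledge of the organelle. Including the cathepsins and cystatins of the preceding paragraph, 100 of 113 were tested. Their median log2 ratio was 0.13, and 65 were higher in 4T1-GMP, which as a share was 65% against 54.7% of all tested genes. Without Rn45s in the library sizes, 48 were, beside 39.2% of all tested genes with that scaling. At a fold of 1.5, 16 were higher and 8 lower, which as shares were 16% against 9.8% of tested genes and 8% against 11.6%.

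Hydrolases other than cathepsins included genes that were higher and genes that were lower, with medians near that of all tested genes. Beside each list here, 54.7% of all tested genes were higher, or 39.2% without Rn45s. Of 24 glycosidases and sulfatases, 14 (58.3%) were higher (median log2 ratio 0.11), or 10 of 24 (41.7%) without Rn45s. Galns, a sulfatase, followed Neu1 with a log2 ratio of 0.69, whereas Ids, another sulfatase, was at -1.001 and Idua, an iduronidase, at -0.39. Of 21 tested lipid, protein and nucleic acid hydrolases and saposins, 14 (66.7%) were higher (median 0.09), or 9 (42.9%) without Rn45s. In that list Grn, the granulin precursor, was at 0.66 and Ppt1, a thioesterase, at 0.60. Gm2a, the GM2 activator, was at -0.68 and Psap, the precursor of the saposins, at -0.45. Psap was abundant, with 106 RPKM in NTB-GMP against 77.5 RPKM in 4T1-GMP. Of 17 tested lysosomal membrane proteins, 10 (58.8%) were higher (median 0.03), or 5 (29.4%) without Rn45s. Lamp2, a major membrane glycoprotein (0.60), and Ctns, the cystine transporter (0.44), were highest, and the transporters Slc29a3 (-0.76) and Slc38a9 (-0.75) lowest.

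The V-ATPase, the proton pump that acidifies the compartment in which cathepsins act, had the most uniform direction of the lists with more than 10 tested lysosomal genes. Of 17 tested subunits and accessory proteins, 16 were higher in 4T1-GMP (median log2 ratio 0.37), or 13 without Rn45s, against 54.7% and 39.2% of all tested genes. At a fold of 1.5, 4 of the 17 were higher, against 9.8% of tested genes, and 1 was lower, against 11.6%. Atp6v1a had 22.6 RPKM in NTB-GMP against 49.2 RPKM in 4T1-GMP (a log2 ratio of 1.12, interval 1.02 to 1.23), and Atp6v1c1 had 20.04 and 34.6 RPKM (0.79). Atp6v0a1 was the exception, with 11.5 and 6.01 RPKM (log2 ratio -0.92, interval -1.10 to -0.76). Atp6ap1 was at 0.05, and this direction reversed under other scalings, to -0.11 without Rn45s.

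The sorting machinery that delivers cathepsins showed 8 of 12 genes higher (median log2 ratio 0.45), and 8 without Rn45s as well, against the same 54.7% and 39.2% of all tested genes. Igf2r, the cation-independent mannose 6-phosphate receptor, had the highest ratio of any lysosomal gene listed, with 1.23 RPKM in NTB-GMP against 5.66 RPKM in 4T1-GMP (a log2 ratio of 2.11, interval 1.92 to 2.49). Gga2, an adaptor for that receptor, was at 0.71. Gnptab (-0.23) and Gnptg (-0.23), whose products make the mannose 6-phosphate tag, were slightly lower, and the interval of Gnptg (-0.54 to 0.09) included 0. Of the transcription factors of lysosomal genes, Tfeb had 1.56 and 2.43 RPKM (log2 ratio 0.60, interval 0.16 to 1.13) and Tfec, a relative known from macrophages, 28.5 and 50.2 RPKM (0.81, interval 0.68 to 0.95). Tfe3 had 4.62 and 3.02 RPKM (-0.60, interval -0.89 to -0.34). Mitf had 2.52 and 2.19 RPKM, with an interval of -0.50 to 0.09.

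**Figure D3:**
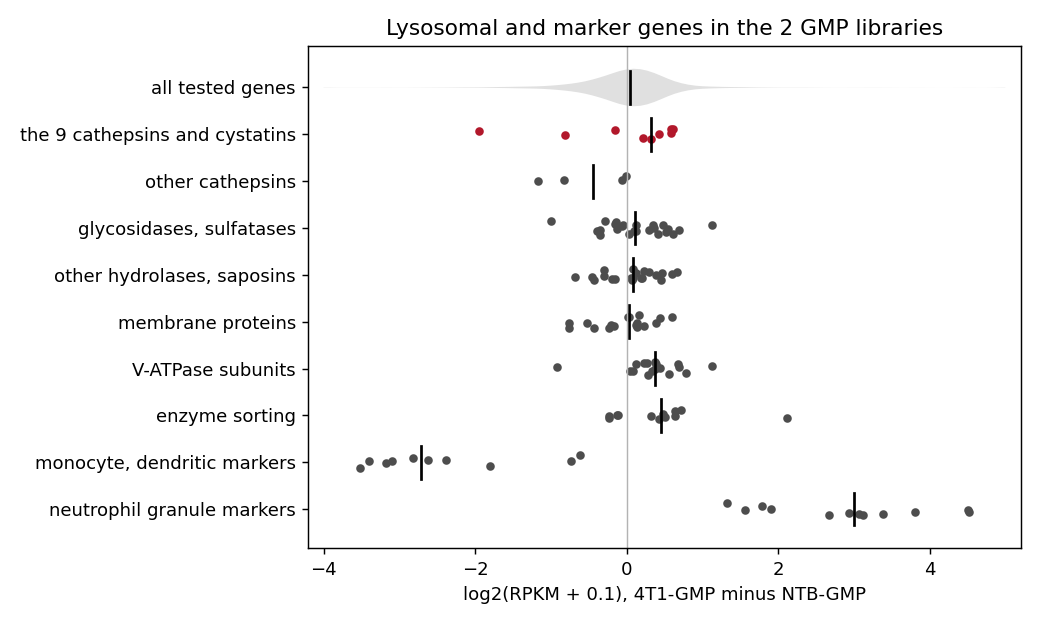
Log2(RPKM + 0.1) of 4T1-GMP minus NTB-GMP for tested genes of each list (points) with the median of each list (vertical bars) and, at the top, the distribution of all 10378 tested genes, with values beyond the axis drawn at its ends. The 9 cathepsins and cystatins (red) ran from -1.95 to 0.62; the monocyte and dendritic markers lay wholly below 0 and the neutrophil granule markers wholly above it.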

How the data were processed

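Bulk RNA-seq of GMPs gave 1 library per group, and the authors deposited 1 RPKM value per gene symbol and library. Per the labels, the submitters' processing notes name mm10, CASAVA 1.8.2, cutadapt 1.2.1, TopHat2 2.0.13, Picard 1.97, HTSeq 0.6.1 and edgeR 3.12.1; gene lengths are not given in the sources used here. Whole reads were recovered from ratios of the deposited RPKM for 14833 of the 14833 symbols above 0. For some genes they are too low by a whole factor, so reads are lower bounds and intervals from them no narrower than they should be. Fitted library sizes (10180365.2 and 30016262.8) were not whole numbers, so they were not plain read totals. Recovery was tested on simulated data. The pseudocount was 0.1 RPKM and the minimum mean 1 RPKM. Intervals on ratios are Clopper-Pearson and carry no pseudocount; those on levels are exact Poisson. PCR reads lack molecular identifiers, so both cover counting error only. The members, the lists and the rule for named genes (every member, every other cathepsin and cystatin listed, 4 transcription factors, Neu1 and Glb1 as partners of Ctsa, and the 2 highest and 2 lowest ratios of each longer lysosomal list) were chosen with earlier results of these data known. Alternatives were pseudocounts of 1 and 0.01, library sizes without Rn45s, centring on the median, quantile normalization, other minimum levels and a fold of 2. Python 3.11.15, numpy 2.4.6, pandas 2.3.3 and scipy 1.17.1 were used. Gene positions came from GENCODE M21 on GRCm38, the assembly also called mm10.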

Additional observations from a re-analysis of the deposited data

How the results depend on the processing

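The direction of all 9 genes was the same under pseudocounts of 1 and 0.01, library sizes without Rn45s, centring on the median and quantile normalization, where 35 of 45 log2 ratios stayed within the interval of the reads. A pseudocount added to both libraries cannot change a direction. Leaving out Rn45s moved each ratio by about -0.16, and centring took 0.05 from each. These shifts were smaller than the lowest positive ratio of the 9 (Cstb, 0.22). Only quantile normalization could therefore have reversed any of the 9. The median of the 9 ran from 0.16 (without Rn45s) to 0.37 (minimum mean RPKM of 5). The count past 1.5-fold in the higher direction fell from 2 to 1 with a pseudocount of 1 and to 0 without Rn45s, after centring, after quantile normalization and at a fold of 2. The count in the lower direction fell from 2 to 1 at a minimum mean RPKM of 5, which leaves out Ctss, and at a fold of 2. For the other lysosomal genes, the 16 higher became 5 without Rn45s and 3 at a fold of 2, and the 8 lower became 3 at a minimum of 5 and 2 at a fold of 2. Of 150 values of other named genes, 4 reversed. Atp6ap1 went to -0.11 without Rn45s, -0.00052 after centring and -0.14 after quantile normalization, and Mitf to 0.0092 after quantile normalization, for which the cause was not tested. No paired analysis was possible because the study sequenced a single library from either group, which also leaves no replicate to omit. With inhibitors added after the data were seen, the cysteine cathepsin to cystatin ratio, 4T1-GMP minus NTB-GMP, went from 0.326 with cystatins C and B to -0.0116 with Cst7 and the stefin A cluster added. Counting intervals from the reads as recovered were widest for Ctss and Cstb. With the larger reads that its nearest transcript implies, the interval of Cstb (-0.05 to 0.50) was narrower than those of Ctsh and Ctsl.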

Other observations

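Further rows with cathepsin symbols lay outside the cathepsin and cystatin lists. The placental cathepsins Cts3, Cts6, Cts7, Ctsj, Ctsm, Ctsq and Ctsr were listed at 0 in both libraries, and Cts8 had 1 read in NTB-GMP. Ctsg, a serine protease stored in primary granules and already counted among the GMP markers, bears a cathepsin symbol without being among the lysosomal enzymes above. It had 1388 RPKM in NTB-GMP against 2998 RPKM in 4T1-GMP.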
